A study of Homo sapiens with 24 samples.

Results

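Both arms that serve as controls in 2 studies of WDR77, a coregulator of androgen signalling, were set against each other without hormone. The libraries were 3 of LNCaP cells transfected with an empty expression vector (EV) and given ethanol vehicle, with sample numbers S1, S15 and S29, and 3 of LNCaP cells transfected with a non-targeting control siRNA (siCtrl) and given ethanol vehicle, with sample numbers S7, S21 and S35. They are 6 of the 24 libraries of the series, picked by their labels. LNCaP is a human prostate cancer line that responds to androgen and needs it for much of its growth. All wells were seeded with 300000 cells, moved to androgen-deprived medium the day after transfection, and a further day later given vehicle or 5 nM R1881, a synthetic androgen, for 48 h. Polyadenylated RNA was sequenced. Libraries from the same arms with R1881 (S2, S16 and S30 for EV, S8, S22 and S36 for siCtrl) were used to ask whether a difference depended on the hormone. The first study also transfected a construct encoding a WDR77 peptide (P3), and the second siRNAs against WDR77 (siWDR77). Study and kind of transfection (plasmid or siRNA) differ together between EV and siCtrl, so they cannot be told apart in any difference given here. No untransfected cells were among the samples, so neither arm gives an undisturbed level.

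Androgens switch on a set of prostate genes, among them those of prostate-specific antigen and other kallikreins. In androgen-deprived medium these genes fall to a low basal level, which is what a vehicle control of an androgen experiment records. Transfection itself can be felt by the cell: plasmid DNA and double-stranded RNA are ligands of nucleic acid sensors that switch on interferon-stimulated genes, and small RNAs are loaded into Argonaute proteins. Low oxygen stabilises hypoxia-inducible factor (HIF), whose targets include enzymes of glycolysis.

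The 3 EV libraries held between 17978172 and 24260446 counts, and the 3 siCtrl libraries between 18334699 and 22282684. The library siCtrl S35 stood apart from the other libraries of its group. The chi-square per degree of freedom between raw counts, which is near 1 for resequencing of a single library, was 20.7 and 20.5 between S35 and the other siCtrl libraries, 5.03 between S7 and S21, and 2.92 to 4.72 within EV. Mitochondrial ribosomal RNA made up 2.69% of counts in S35 (Wilson 95% interval 2.68 to 2.7, counting error only), against 1.45% and 1.5% in siCtrl S7 and S21 and 1.23% to 1.49% in EV. For the vehicle difference, counts over lists and the values of the leading genes are therefore mostly given with and without S35. Interactions of single genes and of lists are given with S35 included. Luminal prostate markers were present in both arms: 14 of 15 passed the filter on low counts, at summed levels (in CPM, counts relative to library size, scaled over all 24 libraries) of 5810 to 5970 CPM in EV and 4650 to 4950 CPM in siCtrl. None of 14 immune markers passed the filter, with CD3D, CD3E, MS4A1 and TYROBP at 0 in the 6 libraries and a summed level of 0.638 to 1.14 CPM in EV and 1.02 to 1.61 CPM in siCtrl. The basal keratinocyte gene KRT5 was at 0 in the 6 libraries.

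Of 16670 genes that passed the filter, 5906 (35.4%) differed between EV and siCtrl at an adjusted p under 0.05 (edgeR quasi-likelihood F test, Benjamini-Hochberg over all genes tested). In EV, 3032 genes (18.2%) were higher and 2874 (17.2%) lower, and among these 301 were at least 2-fold higher and 542 at least 2-fold lower. Without S35, 6203 of 17002 genes (36.5%) differed, 3256 higher and 2947 lower, and 5329 of the 5906 genes (90.2%) were called again in the same direction. The split of calls depended on the scaling: it was 51.3% higher with TMM factors and 39.1% with library totals alone, while the median difference of all genes moved by less than 0.1, between -0.0031 and -0.062 on the log2 scale. Each list below is set against those shares of all genes. The libraries of the arms did not overlap for 49.3% of all genes tested, 27.1% with EV higher and 22.1% with EV lower. Lack of overlap alone therefore sets no gene below apart. In bulk RNA, fewer cells of a type and less RNA per cell cannot be told apart, and p-values measure the spread between these libraries, which are biological triplicates per the submitters.

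**Figure D1:**
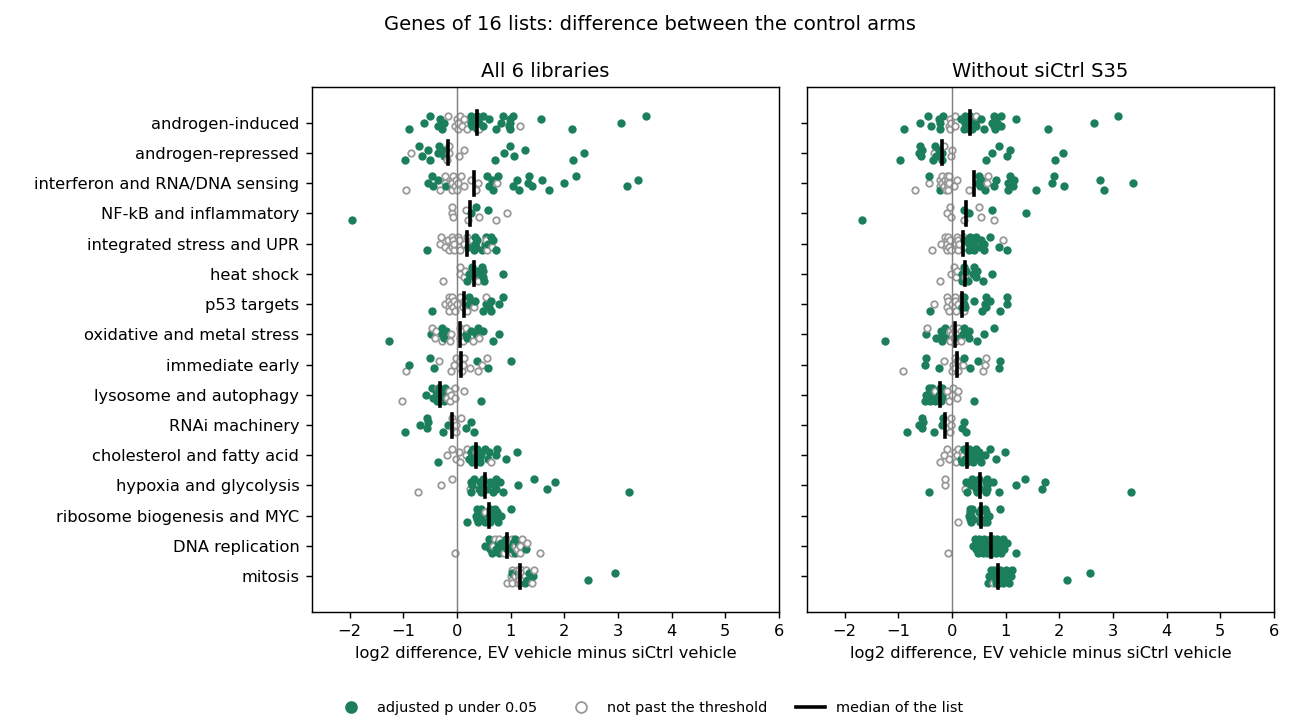
Log2 difference between EV and siCtrl vehicle libraries (horizontal axis) for the measured genes of 16 lists, with all 6 libraries on the left and without siCtrl S35 on the right. Filled points passed an adjusted p of 0.05, open points did not, and black bars mark list medians; DNA replication and mitosis genes lie almost wholly to the right in both panels, and many more of them are filled without S35.

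Androgen-response genes were higher in EV. Of 45 genes known to be induced by androgen in LNCaP cells, 43 were tested, 25 were higher and 7 lower in EV, with a median log2 difference of 0.37, against 18.2% higher, 17.2% lower and a median of -0.0031 over all genes. Without S35 the counts were 28 higher and 8 lower and the median was 0.33. The kallikreins stood at the far end of the list.

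KLK3 (chr19:50854915-50860764, plus strand of GRCh38, protein-coding) encodes prostate-specific antigen, the serum marker of prostate cancer. It measured 1280, 1300 and 1390 CPM in EV S1, S15 and S29, against 207, 207 and 53.4 CPM in siCtrl S7, S21 and S35. All EV libraries lay above all siCtrl libraries, and S35 lay well below the other siCtrl libraries. The log2 difference was 3.06 ± 0.61 (SE; 8.34-fold, adjusted p = 0.0226). Without S35 it was 2.65 (6.27-fold, edgeR adjusted p = 3.26e-31). That fit holds only S7 and S21 in siCtrl, both at 207 CPM, so its p-value measures a spread without the library that stood apart. The call was lost when any library other than S35 was left out, with adjusted p between 0.0586 (without S21) and 0.0749 (without S1 or S29) and log2 differences of 3.02 to 3.32.

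KLK2 (chr19:50861568-50880567, plus strand), the neighbouring gene for a closely related secreted protease, measured 79.3, 86.8 and 90.1 CPM in EV, against 10.3, 9.17 and 2.34 CPM in siCtrl S7, S21 and S35. The arms did not overlap and S35 was again the lowest. The log2 difference was 3.53 ± 0.49 (11.5-fold, adjusted p = 0.00788), and 3.10 without S35 (8.59-fold). With a replicate block by sample number, described below, neither KLK2 (edgeR adjusted p = 0.0653) nor KLK3 (0.0934) was called. KLK2 and KLK3 are similar in sequence, and reads that fit both were assigned by the authors' counting.

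Both kallikrein promoters carry an androgen response element, which is why they are shown. RefSeq promoter windows (GRCh38.p14, 250 bases before to 50 after the start, both on the plus strand) were chr19:50854665-50854964 for KLK3 and chr19:50873189-50873488 for KLK2, and capitals mark GAACAGCAAGTGCT, the run of letters shared by both windows around the element's half-site GAACA.
KLK3: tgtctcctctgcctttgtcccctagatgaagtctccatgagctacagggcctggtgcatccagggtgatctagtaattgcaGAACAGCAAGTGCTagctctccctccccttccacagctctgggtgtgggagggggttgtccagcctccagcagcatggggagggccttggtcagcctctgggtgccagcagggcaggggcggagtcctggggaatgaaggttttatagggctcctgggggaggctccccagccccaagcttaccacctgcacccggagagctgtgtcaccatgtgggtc
KLK2: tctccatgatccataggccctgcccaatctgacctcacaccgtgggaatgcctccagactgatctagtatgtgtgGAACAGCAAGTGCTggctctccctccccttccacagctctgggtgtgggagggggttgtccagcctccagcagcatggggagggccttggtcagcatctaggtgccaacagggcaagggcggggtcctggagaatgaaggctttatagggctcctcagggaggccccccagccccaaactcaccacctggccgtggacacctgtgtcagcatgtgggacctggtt
Searched on both strands, GAACAGCAAGTGCT was in 2 of 35116 RefSeq promoter windows (0.0057%), these being the 2 it was taken from. A match describes letters in the window and no binding.

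Other androgen targets differed by less. TMPRSS2, a membrane serine protease, measured 323, 326 and 340 CPM in EV, against 174, 168 and 129 CPM in siCtrl, without overlap (log2 1.05 ± 0.10, 2.07-fold, adjusted p = 7.61e-05; 0.92 without S35). FKBP5, a co-chaperone of steroid receptors, measured 69.7, 76.2 and 74.1 CPM in EV, against 39.9, 43 and 27 CPM in siCtrl, also without overlap (log2 0.98 ± 0.18, adjusted p = 0.0076; 0.80 without S35). For both genes the lowest value was in S35.

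CHRNA2, a nicotinic receptor subunit that LNCaP cells induce on androgen, averaged 4.12 ± 0.432 CPM in EV and 0.92 ± 0.439 CPM in siCtrl (SD, n = 3 each; log2 2.14, 4.40-fold). SLC45A3 (prostein), the stress gene NDRG1, the polyol enzyme SORD and the TGF-beta inhibitor PMEPA1 had log2 differences of 0.82, 0.85, 0.49 and 0.59, all called with and without S35. STEAP2, a metalloreductase of the same list, fell by 0.62. The STEAP2 values in these arms go against the list's name, with means in EV of 1100 CPM with R1881 and 1140 CPM with vehicle, and in siCtrl of 1330 CPM with R1881 and 1720 CPM with vehicle. This does not hold for every lower member of the list. Another was called lower in EV, with and without S35, yet had higher means with R1881 than with vehicle in both arms.

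Genes of androgen signalling and prostate lineage went both ways. Of 29 tested, 8 were higher and 11 lower in EV, with a median of -0.04 (7 and 12 without S35). The steroid receptor coactivators NCOA2 and NCOA3 fell by 0.54 and 0.66 on the log2 scale, the corepressor NCOR1 fell by 0.51, and the lineage factor GRHL2 fell by 0.49. PRMT5, the arginine methyltransferase that works with WDR77 in the methylosome, rose by 0.66 (114 ± 3.17 CPM in EV and 71.2 ± 2.34 CPM in siCtrl, SD, n = 3 each). WDR77 itself (chr1:111439890-111449376, minus strand), which is targeted in neither arm, measured 54.8, 58.4 and 63.5 CPM in EV, against 42.4, 47.4 and 47.3 CPM in siCtrl. The arms did not overlap (log2 0.35 ± 0.074, adjusted p = 0.00179; 0.37 without S35).

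**Figure D2:**
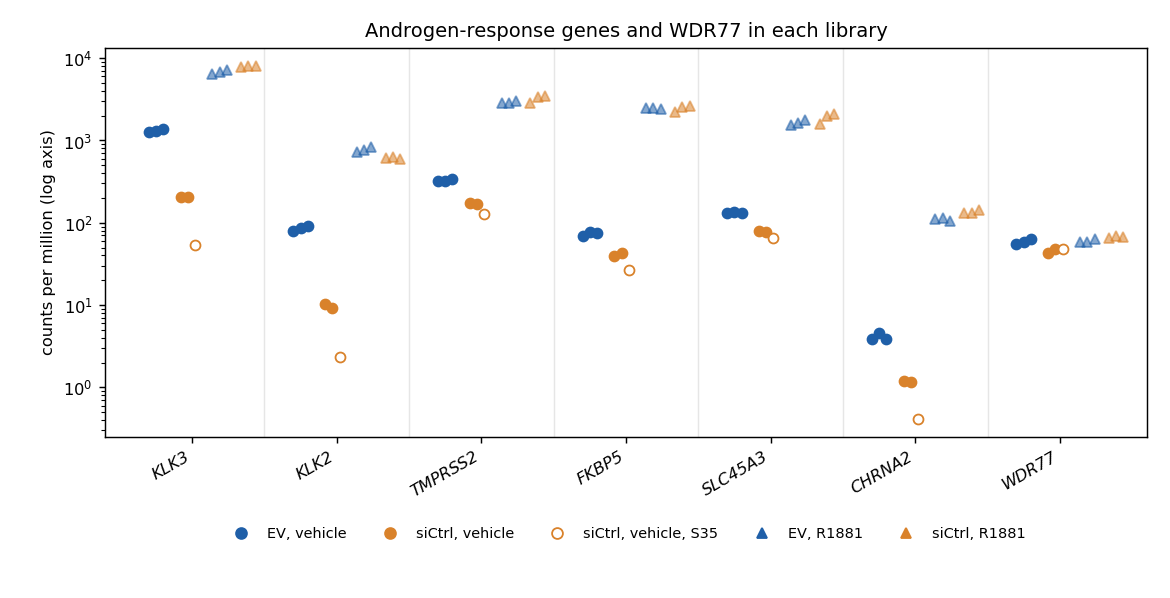
CPM (log axis) of androgen-response genes and WDR77 in each library of the EV and siCtrl arms. Circles are vehicle and triangles R1881 libraries, blue is EV and orange siCtrl, and the open circle is siCtrl S35; the arms separate with vehicle (KLK3 1280 to 1390 CPM in EV, 53.4 to 207 CPM in siCtrl) and lie close together with R1881.

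Genes listed as androgen-repressed did not move one way. Of 22 tested, 7 were higher and 9 lower in EV, with a median of -0.17 (7 and 11 without S35). OPRK1, the kappa opioid receptor, measured 64.3, 63.7 and 64.9 CPM in EV, against 127, 120 and 125 CPM in siCtrl (log2 -0.97 ± 0.057, adjusted p = 1.11e-08). CAMK2N1, an inhibitor of the kinase CaMKII, fell by 0.70 on the log2 scale, and the neuropeptide NTS rose by 0.99. Other called members did not have the response to R1881 that the list's name gives. PRUNE2 fell by 0.65, but averaged 706 CPM with R1881 and 563 CPM with vehicle in EV, and 858 CPM with R1881 and 873 CPM with vehicle in siCtrl. The steroid glucuronidating enzyme UGT2B11 rose by 2.16, and its level was higher with R1881 in both arms, at 60 CPM with R1881 and 6.74 CPM with vehicle in EV, and 11.7 CPM with R1881 and 1.48 CPM with vehicle in siCtrl. Its relative UGT2B28 rose by 2.37, with 41.7 CPM with R1881 and 1.77 CPM with vehicle in EV, and 10.3 CPM with R1881 and 0.342 CPM with vehicle in siCtrl. The UGT2B genes are near-identical copies of each other, so their counts are uncertain.

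A second list came from libraries that enter no comparison of EV with siCtrl. Genes called in P3 and in siWDR77 cells with R1881 against vehicle (21.6% of all genes called in P3, 13.4% higher and 8.26% lower, and 55.3% in siWDR77, 28% higher and 27.3% lower) and changed at least 2-fold in the same direction in both numbered 276 for higher and 64 for lower. Of the 276, 220 were tested here, and 70 were higher and 31 lower in EV, with a median of 0.13 (72 higher and 31 lower without S35). Of the 64 hormone-lowered genes, 62 were tested, and 2 were higher and 29 lower in EV, with a median of -0.61 (2 higher and 32 lower without S35). Hormone-lowered genes therefore lay mostly on the low side in EV, while hormone-raised genes leaned to the high side with members both ways. Over all genes, 18.2% were higher and 17.2% lower. With 4-fold required, 48 of 86 hormone-raised genes were tested, 19 higher and 4 lower in EV, with a median of 0.42. Of the 4 hormone-lowered genes then left, 2 were tested, with 0 higher and 1 lower.

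With R1881 the difference was smaller or reversed for many androgen-response genes. KLK3 averaged 6760 ± 386 CPM in EV and 7970 ± 191 CPM in siCtrl with R1881 (log2 -0.22, adjusted p = 0.00183), TMPRSS2 differed by -0.14 (adjusted p = 0.0602) and FKBP5 by 0.015 (adjusted p = 0.874). KLK2 stayed higher in EV with R1881, by 0.36 (adjusted p = 7.67e-06). NDRG1 did too, by 0.67 (adjusted p = 6.85e-10), and its interaction was not called (adjusted p = 0.134). Over all genes, 3921 of 15879 (24.7%) differed between the arms with R1881, 1944 higher (12.2%) and 1977 lower (12.5%) in EV, or 2392 higher and 1600 lower with upper-quartile scaling. Of the 45 androgen-induced genes, all tested with R1881, 8 were higher and 18 lower in EV. The difference between the differences, vehicle minus R1881, was tested with an interaction term over the 12 libraries and was called for 3014 of 17538 genes (17.2%), 1898 positive (10.8%) and 1116 negative (6.36%). This split turned with the scaling, to 972 positive and 1781 negative with library totals alone, where the median of all genes was -0.078 in place of 0.026. Without S35, 1640 of 18008 genes were positive and 1204 negative, with a median of -0.0017. In the androgen-induced list the interaction was positive for 22 and negative for 3 of 45 genes, and for 18 and 4 with library totals alone. For KLK3 it was 3.31 ± 0.58 (adjusted p = 0.00535), for KLK2 3.20 and for TMPRSS2 1.23.

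Glycolysis genes and HIF targets were higher in EV almost throughout. Of 26 tested, 22 were higher and none lower in EV by edgeR, with a median of 0.52; at an unadjusted p under 0.05, by DESeq2 and without S35, 1 was lower. Without S35, 22 were higher, and with library totals alone 20 were higher and 1 lower. LDHA (chr11:18394388-18408425, plus strand), the enzyme that turns pyruvate into lactate, measured 964, 1030 and 950 CPM in EV, against 282, 300 and 232 CPM in siCtrl. The arms did not overlap (log2 1.83 ± 0.088, 3.56-fold, adjusted p = 6.04e-08; 1.73 without S35). HK2, the hexokinase that starts glycolysis, measured 59.6, 61.1 and 64.6 CPM in EV, against 18.2, 19.8 and 18.9 CPM in siCtrl (log2 1.68 ± 0.077, 3.21-fold). PDK1, a kinase that holds pyruvate back from the mitochondrion, rose by 1.44, PFKP, a phosphofructokinase, by 1.14, and BNIP3, a mitophagy receptor, by 0.85 on the log2 scale.

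NDUFA4L2, a hypoxia-induced mitochondrial protein, measured 41.4, 55.3 and 54.2 CPM in EV, against 5.57, 4.13 and 6.29 CPM in siCtrl (log2 3.21 ± 0.15, 9.26-fold, adjusted p = 8.27e-08; 3.33 without S35). The largest difference between EV and siCtrl among the genes named here was that of PLOD2 (chr3:146069440-146163653, minus strand), a lysyl hydroxylase that prepares collagen for cross-linking and is a known HIF target, although the glycolysis list does not hold it. It measured 8.59, 11.2 and 9.73 CPM in EV, against 0.286, 0.101 and 0.230 CPM in siCtrl. The EV libraries together held 618 counts and the siCtrl libraries 14 (log2 5.49 ± 0.28, 44.8-fold, adjusted p = 2.48e-09; 5.54 without S35).

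Promoter windows of PLOD2 (chr3:146161135-146161434, minus strand) and LDHA (chr11:18394313-18394612, plus strand) are shown for the gene with the largest difference and for a glycolytic enzyme of the list. They are from RefSeq, GRCh38.p14, and capitals mark ACGTG, the core of the hypoxia response element, or its reverse complement CACGT.
PLOD2: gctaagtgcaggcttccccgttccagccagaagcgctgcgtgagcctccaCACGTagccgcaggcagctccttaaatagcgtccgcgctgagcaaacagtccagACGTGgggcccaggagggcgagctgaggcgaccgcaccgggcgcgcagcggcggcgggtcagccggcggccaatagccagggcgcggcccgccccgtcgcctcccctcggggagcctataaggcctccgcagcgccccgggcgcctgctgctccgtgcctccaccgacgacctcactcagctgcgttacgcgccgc
LDHA: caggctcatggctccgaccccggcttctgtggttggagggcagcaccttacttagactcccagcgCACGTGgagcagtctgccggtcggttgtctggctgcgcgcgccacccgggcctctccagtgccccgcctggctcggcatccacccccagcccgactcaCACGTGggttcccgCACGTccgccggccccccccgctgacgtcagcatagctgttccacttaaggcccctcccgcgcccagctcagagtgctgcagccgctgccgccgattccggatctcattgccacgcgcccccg
PLOD2 held 2 matches and LDHA 5, some of them overlapping as the palindrome CACGTG. So short a motif is common: 21.4% of all 35116 windows held it on either strand. Among the genes of the glycolysis and HIF list, 15 of 24 with a window (62.5%) held at least 1 match in any of their windows. That is a share of genes, while the share over all is one of windows, so they are not of the same unit. The list was drawn up from glycolysis genes and HIF targets, so its share describes the list and not these libraries.

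Glycolysis genes and HIF targets were higher in EV with R1881 as well. There, 24 of the 26 list members tested were higher and 1 lower in EV, with a median of 0.58, and the interaction was called for 7 of 27, 3 positive and 4 negative. LDHA averaged 1100 CPM in EV and 329 CPM in siCtrl with R1881 (log2 1.76 ± 0.056), NDUFA4L2 81.6 and 8.27 CPM (log2 3.32), and PLOD2 13.4 and 0.478 CPM (log2 4.80). Their interaction terms did not pass the threshold (adjusted p = 0.579 for LDHA, 0.904 for NDUFA4L2 and 0.33 for PLOD2). HK2 differed less with R1881 than with vehicle (log2 0.79 and 1.68, interaction 0.93 ± 0.10, adjusted p = 6.79e-07). In the other vehicle arm of each study, PLOD2 averaged 19.4 ± 2.94 CPM in P3 cells, and 0.139 ± 0.122 CPM in siWDR77 cells, and LDHA 984 ± 31.0 CPM in P3 cells and 284 ± 20.4 CPM in siWDR77 cells (SD, n = 3 each).

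Interferon-stimulated genes were higher in EV in part. Of 51 genes of interferon response and nucleic acid sensing, 40 were tested, and 17 were higher and 5 lower in EV, with a median of 0.31 (19 higher and 2 lower of 42 without S35, and 2 lower also without S1 or S29 and 3 without S15). IFI6, an interferon-induced mitochondrial protein, measured 53.2, 50.6 and 47.8 CPM in EV, against 11.1, 12.4 and 8.68 CPM in siCtrl. The arms did not overlap (log2 2.22 ± 0.11, 4.64-fold, adjusted p = 3.08e-09; 2.08 without S35). IFIT1, which binds foreign RNA ends, measured 15, 16.1 and 13.8 CPM in EV, against 4.5, 3.48 and 3.12 CPM in siCtrl (log2 1.99 ± 0.155, 3.97-fold, adjusted p = 2.03e-07).

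OAS1, a sensor of double-stranded RNA that activates RNase L, measured 5.87, 7.82 and 6.91 CPM in EV, against 2.82, 1.66 and 2.2 CPM in siCtrl (log2 1.59). Its relative OAS2 averaged 1.85 ± 0.275 CPM in EV and 0.20 ± 0.105 CPM in siCtrl (log2 3.17), and IFI27 1.96 ± 0.153 CPM in EV and 0.177 ± 0.0726 CPM in siCtrl (log2 3.37). The ubiquitin-like ISG15 differed by less, with log2 0.67. MX1, an interferon-induced GTPase, differed by -0.10 (adjusted p = 0.61) and EIF2AK2 (PKR), the kinase that senses double-stranded RNA, by 0.0038 (adjusted p = 0.972); both were picked after their values were seen. The interferon genes themselves, IFNB1 and IFNL1, did not pass the filter, with 4 and 3 counts over the EV libraries and 0 in siCtrl, where 0 counts allow up to 0.135 to 0.164 CPM a library. Of 12 NF-kB and inflammatory genes tested, 3 were higher and 1 lower in EV (4 and 1 without S35). The mitochondrial superoxide dismutase SOD2 rose by 0.27, while the cytokine IL1B, at 0.569 ± 0.159 CPM in EV and 2.2 ± 0.703 CPM in siCtrl, fell by 1.96 on the log2 scale (adjusted p = 0.000561).

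The windows of IFI6 (chr1:27672143-27672442, minus strand) and IFIT1 (chr10:89392373-89392672, plus strand) are given as the clearest members of the interferon group (RefSeq, GRCh38.p14). Capitals mark GAAANNGAAA, the core of the interferon-stimulated response element, or its reverse complement.
IFI6: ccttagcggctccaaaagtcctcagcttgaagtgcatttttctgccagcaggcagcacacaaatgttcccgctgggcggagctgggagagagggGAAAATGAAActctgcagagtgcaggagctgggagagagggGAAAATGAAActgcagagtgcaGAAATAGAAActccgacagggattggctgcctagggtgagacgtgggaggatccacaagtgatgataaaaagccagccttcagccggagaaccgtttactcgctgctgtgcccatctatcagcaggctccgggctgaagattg
IFIT1: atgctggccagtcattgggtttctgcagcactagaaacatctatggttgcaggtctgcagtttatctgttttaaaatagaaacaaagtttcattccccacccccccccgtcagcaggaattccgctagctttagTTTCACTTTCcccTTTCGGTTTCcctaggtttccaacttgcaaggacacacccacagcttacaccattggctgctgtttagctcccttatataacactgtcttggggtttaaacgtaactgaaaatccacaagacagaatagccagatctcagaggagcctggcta
IFI6 held 3 matches and IFIT1 held 2, on its other strand. The motif was in 3.57% of all windows and in those of 25 of 39 list members with a window (64.1%). The list was drawn up from genes known to answer interferon, so that share describes the list and not these libraries.

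With R1881, 18 of 41 interferon genes were higher and 2 lower in EV, with a median of 0.37, and the interaction was called for 8 of 43, 3 positive and 5 negative, near the 17.2% of all genes. IFI6 averaged 30.2 CPM in EV and 5.69 CPM in siCtrl with R1881 (log2 2.43), and its interaction was -0.18 (adjusted p = 0.532). In the other vehicle arms, IFI6 averaged 39.7 ± 9.04 CPM in P3 cells and 21.6 ± 5.90 CPM in siWDR77 cells, which lay above siCtrl.

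**Figure D3:**
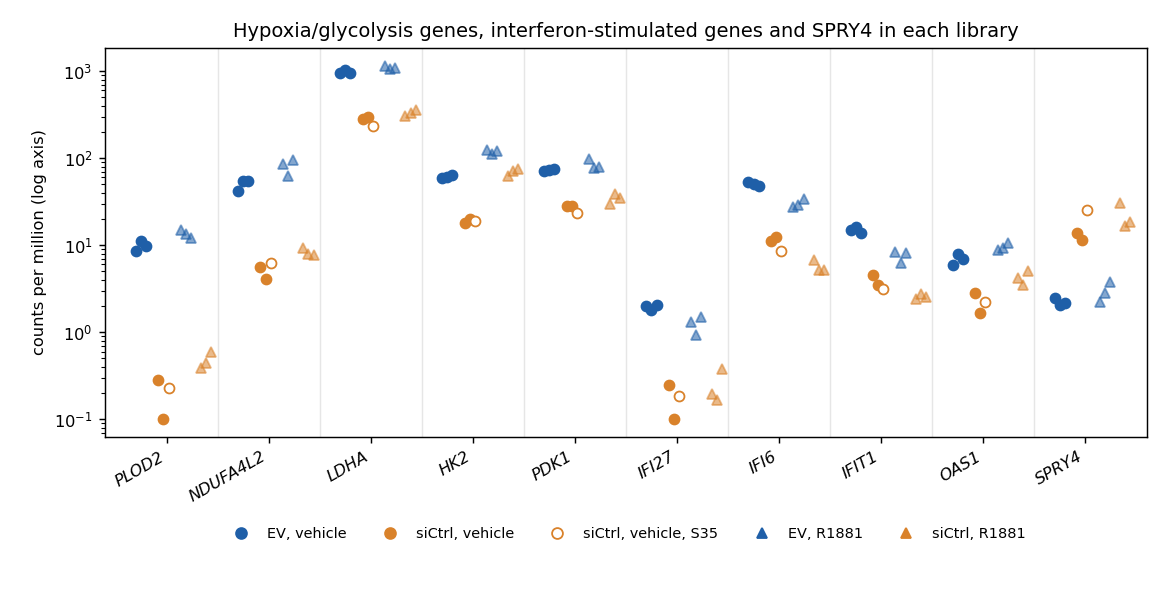
CPM (log axis) of 5 hypoxia and glycolysis genes, 4 interferon-stimulated genes and SPRY4 in each library of the EV and siCtrl arms. Circles are vehicle and triangles R1881 libraries, blue is EV and orange siCtrl, and the open circle is siCtrl S35; the arms are separated with vehicle and with R1881, EV being higher for all but SPRY4.

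Stress responses moved by modest amounts. Of 36 genes of the integrated stress and unfolded protein responses, 14 were higher and 1 lower in EV, with a median of 0.20 (16 higher and none lower without S35, and 12 higher and 3 lower with library totals alone). The serine enzyme SHMT2 measured 366, 349 and 353 CPM in EV, against 209, 220 and 230 CPM in siCtrl (log2 0.68 ± 0.056, adjusted p = 3.36e-07). The ATF4 target DDIT4 rose by 0.54, the secreted STC2 by 0.57, and the endoplasmic reticulum chaperones HSP90B1 and PDIA4 by 0.63 and 0.54. The lower gene, PPP1R15A, which reverses the block on translation, measured 4.49 ± 1.01 CPM in EV and 6.45 ± 1.41 CPM in siCtrl with overlapping libraries (log2 -0.55, adjusted p = 0.0441), and its call was lost without S35 (adjusted p = 0.156), S15 (0.213), S29 (0.116) or S21 (0.0555). DDIT3 (CHOP), ASNS and CHAC1, classic stress reporters, picked after their values were seen, differed by -0.32, 0.011 and -0.072 (adjusted p = 0.236, 0.957 and 0.718).

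The direction in this list differed with the hormone: with R1881, 3 of its 36 genes were higher and 20 lower in EV (4 and 14 with upper-quartile scaling). The interaction was positive for 22 of 36 and negative for none (19 and none with library totals alone), against 10.8% and 6.36% of all genes. STC2 had 80.4 ± 2.03 CPM in EV and 53.4 ± 5.92 CPM in siCtrl with vehicle, while with R1881 the log2 difference was -0.24 (interaction 0.84 ± 0.11, adjusted p = 9.46e-06). SHMT2 differed by -0.04 with R1881 (interaction 0.75 ± 0.079). Not every member changed: DDIT4 was higher in EV with R1881 too, by 0.57 (interaction 0.0028, edgeR adjusted p = 0.988).

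Heat shock genes were higher in EV: 11 of 17 rose and none fell, at an unadjusted p or by DESeq2 either, with a median of 0.31 (11 and none without S35). Without S15, 1 was lower, and 9 were higher without S21 or with library totals alone. HSPD1, the mitochondrial chaperonin, measured 981, 979 and 964 CPM in EV, against 547, 596 and 450 CPM in siCtrl (log2 0.86 ± 0.088, adjusted p = 1.9e-05). HSP90AA1 and HSPH1 rose by 0.49 and 0.51. Of 28 p53 targets, 10 were higher and 1 lower (13 and 1 without S35, and 10 and 4 with library totals alone), among them the nuclease AEN at 0.63, the kinase PLK2 at 0.64 and the DNA repair gene DDB2 at 0.59. TP53INP1 was the lower gene at -0.46. Metallothioneins MT2A and MT1G, zinc-binding proteins whose family members share sequence, rose by 0.67 and 0.78, but the oxidative and metal stress list as a whole was split, with 8 higher and 6 lower of 27 (3 lower without S1 or S15, 5 higher without S29). In it AKR1C1, an enzyme that reduces steroids and aldehydes, fell by 1.27; its family members share sequence. Of 20 immediate-early genes, 3 were higher and 3 lower, near the shares of all genes, and the count of lower genes ranged from 0 without S15 and 1 without S1 to 6 without S21, while 5 were higher without S35. SRF, the factor that drives many of them, rose by 0.38.

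**Figure D4:**
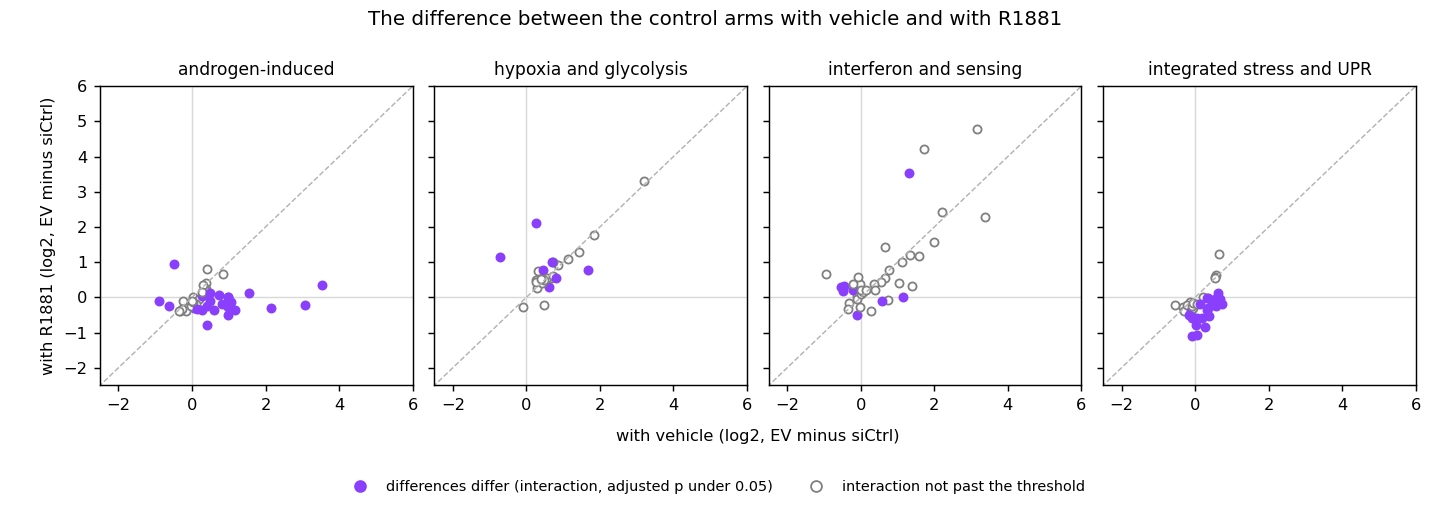
Log2 difference EV minus siCtrl with vehicle (horizontal) and with R1881 (vertical) for tested members of 4 lists. Filled points are genes whose 2 differences differ by the interaction term; the dashed line marks equal differences, and over all members in the interaction fit it was called for 7 of 27 hypoxia, 8 of 43 interferon, 25 of 45 androgen-induced and 22 of 36 stress genes.

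Lysosome and autophagy genes were lower in EV: of 26 tested, 16 fell and 1 rose, with a median of -0.31 (18 and 1 without S35). HEXA, a lysosomal hexosaminidase, measured 30.6, 27.3 and 28.2 CPM in EV, against 40.8, 39.5 and 45.3 CPM in siCtrl, without overlap (log2 -0.57 ± 0.083, adjusted p = 8.12e-05). The protease CTSD fell by 0.47 and the lysosomal growth factor GRN by 0.39, while the alpha-galactosidase GLA rose by 0.45. Genes of RNA interference were more often lower than higher, 7 against 3 of 16 (8 against 3 without S35). AGO4, an Argonaute protein, measured 52.0, 53.3 and 44.7 CPM in EV, against 91.6, 84.5 and 115 CPM in siCtrl (log2 -0.97 ± 0.11, adjusted p = 0.000208; -0.84 without S35). AGO1 and AGO3 fell by 0.56 and 0.69, DICER1, the nuclease that makes small RNAs, by 0.56, and the silencing scaffold TNRC6B by 0.53. With R1881, 1 of 16 was higher and 2 lower, and DICER1 was still lower in EV (log2 -0.57).

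Genes of growth were higher in EV. Of 23 genes of ribosome biogenesis and MYC targets, 22 rose and none fell, at an unadjusted p or by DESeq2 either, with a median of 0.60 (21 and none without S35). MYC itself, the transcription factor of growth, measured 195, 180 and 214 CPM in EV, against 102, 104 and 81.3 CPM in siCtrl. The arms did not overlap (log2 1.01 ± 0.10, 2.02-fold, adjusted p = 7.12e-05; 0.90 without S35). The nucleolar proteins NOLC1, FBL and NPM1 rose by 0.75, 0.69 and 0.62, and the cell cycle kinase CDK4 by 0.61. With R1881, 8 of 22 were higher and 1 lower, and the interaction was positive for 17 of 23 and negative for none.

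Replication and mitosis genes were higher in EV, and how many passed the test depended on S35. Of 36 DNA replication genes, 21 rose in EV and none fell by edgeR (none fell at an unadjusted p under 0.05, and 34 rose and none fell by DESeq2), with a median of 0.93, and 35 of the 36 had no overlap between the arms (of all genes tested, 49.3% lay apart, 27.1% with EV higher). Without S35, 35 rose, with a median of 0.72. Of 30 mitosis genes, all 30 lay apart between the arms, but 8 passed the threshold with all 6 libraries by edgeR, 29 did without S35, and 30 by DESeq2 with all 6. The medians were 1.17 with all libraries and 0.87 without S35. Without S1, S15, S29, S7 or S21 in turn, 11, 11, 9, 14 and 18 replication genes and 5, 6, 6, 7 and 9 mitosis genes were called. The summed level of the mitosis list was 2450 to 2540 CPM in EV, against 1290, 1290 and 555 CPM in siCtrl S7, S21 and S35.

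CDT1, which licenses replication origins, measured 55.3, 54.7 and 60.9 CPM in EV, against 34.5, 36.1 and 24.9 CPM in siCtrl (log2 0.82 ± 0.13, adjusted p = 0.00073; 0.67 without S35). RFC2 and RFC5, subunits of the clamp loader, rose by 0.60 and 0.73, and POLA1, the primase-bound polymerase, by 0.88. CENPF, a kinetochore protein of dividing cells, measured 158, 168 and 157 CPM in EV, against 43.1, 27.7 and 15.8 CPM in siCtrl (log2 2.45 ± 0.39, adjusted p = 0.0118; 2.15 without S35). CENPE, the kinetochore motor, measured 51.1, 60.6 and 54.9 CPM in EV, against 10.6, 7.51 and 2.89 CPM in siCtrl (log2 2.95 ± 0.45, adjusted p = 0.01; 2.58 without S35). AURKB, the centromere histone CENPA and the ubiquitin enzyme UBE2C rose by 1.13, 1.34 and 1.26. S35 was the lowest library for each of these genes. With the replicate block by sample number, neither CENPF (edgeR adjusted p = 0.0571) nor CENPE (0.0639) was called. With R1881, 28 of 30 mitosis genes were higher in EV and none lower, with a median of 0.76, against 16 higher and 1 lower of 36 replication genes.

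**Figure D5:**
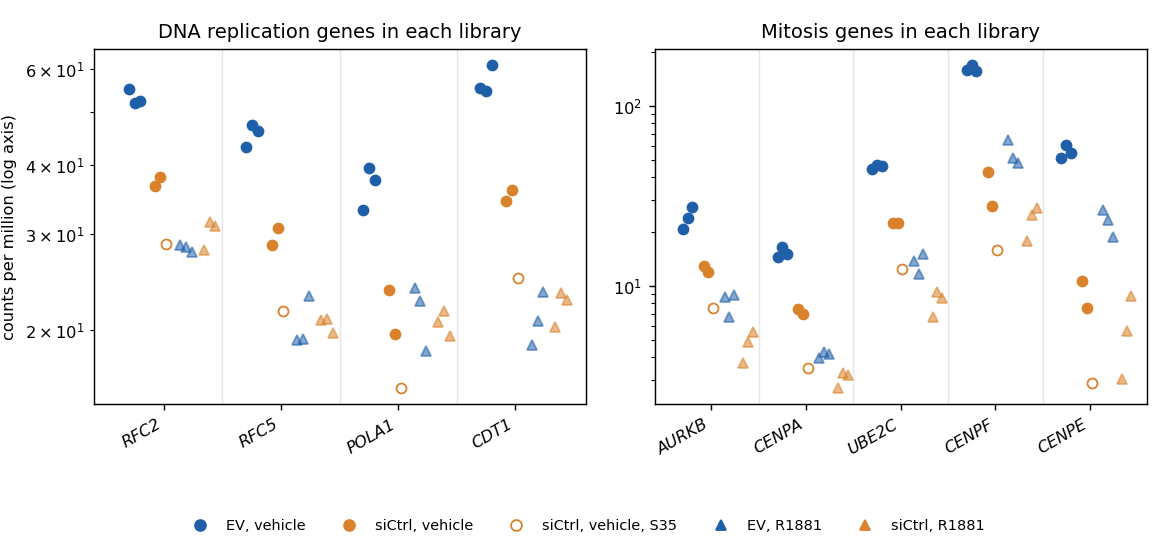
CPM (log axis) of DNA replication genes (left) and mitosis genes (right) in each library of the EV and siCtrl arms. Circles are vehicle and triangles R1881 libraries, blue is EV and orange siCtrl; the open circle, siCtrl S35, is the lowest vehicle library for every gene shown, for CENPF 15.8 CPM beside 43.1 and 27.7 CPM in S7 and S21.

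Lipid synthesis genes were mostly higher in EV with and without the hormone. Of 30 cholesterol and fatty acid genes, 20 rose and 1 fell with vehicle, with a median of 0.35 (20 higher and none lower without S35, and 17 and 2 with library totals alone), and 18 of 29 rose and 1 fell with R1881. FADS1, a fatty acid desaturase, measured 109, 112 and 109 CPM in EV, against 61.8, 60.2 and 50.5 CPM in siCtrl (log2 0.92 ± 0.074, adjusted p = 2.85e-07). SCD, the stearoyl desaturase, rose by 0.75 and INSIG1, the sterol sensor of the endoplasmic reticulum, by 0.72. STARD4, a sterol carrier, was the lower gene at -0.35, and its call was lost without S35 (adjusted p = 0.0629), S15 (0.0604) or S29 (0.107). The 13 mitochondrially encoded protein genes gave no call with all 6 libraries by edgeR, where 1 had an unadjusted p under 0.05, and 1 call by DESeq2. Without S35, 9 were higher in EV, among them MT-CO3 at 0.34 and MT-ND2 at 0.33. Their summed level was 45700 to 47100 CPM in EV, against 39900, 35800 and 53800 CPM in siCtrl S7, S21 and S35.

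With clone-named features left aside, the largest falls in EV were in genes of low level. ATOH8, a basic helix-loop-helix factor, measured 0, 0.0405 and 0.159 CPM in EV, against 1.39, 0.907 and 2.62 CPM in siCtrl (log2 -4.56 ± 0.68, adjusted p = 0.000103). The adaptor gene GAB3 fell by 3.72, IL21-AS1 by 3.36, NBPF7 by 3.35, the ectonucleotidase ENTPD8 by 3.12, the amino acid transporter SLC6A19 by 2.82, the secreted lectin REG4 by 2.51, PDZK1P1 by 2.39 and the homeobox gene DLX3 by 2.29. IL21-AS1 is annotated as antisense and NBPF7 and PDZK1P1 as pseudogenes, so reads of neighbouring or similar genes could be counted there. SPRY4, a feedback inhibitor of receptor tyrosine kinase signalling, measured 2.50, 2.07 and 2.18 CPM in EV, against 13.8, 11.5 and 25.7 CPM in siCtrl (log2 -2.94 ± 0.37, adjusted p = 0.00164; -2.53 without S35), and differed as much with R1881 (log2 -2.89). On the higher side, ADAM7 rose by 3.43, CYP11A1, the enzyme that begins steroid synthesis, by 3.15, and C2orf72 by 2.92, with EV means of 2.06, 1.01 and 1.31 CPM. Single libraries moved some of these values: ADAM7 was 4.16 without S21, C2orf72 4.68 without S35, ATOH8 -5.85 without S29, NBPF7 -4.50 without S1 and -2.76 without S15, ENTPD8 -4.30 without S1 and PDZK1P1 -3.09 without S29.

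Markers of other cell types were checked as well. Of 8 fibroblast markers tested, none was higher and 4 were lower in EV (1 higher at an unadjusted p under 0.05 and none by DESeq2; 1 higher and 4 lower of 9 without S35), among them COL5A2 (47.1 ± 2.22 CPM in EV and 98.8 ± 7.44 CPM in siCtrl), FN1 (log2 -0.69) and COL1A1 (log2 -0.57). Of 5 neuroendocrine markers tested, 3 were higher in EV, and SYT4, a synaptotagmin, measured 923, 939 and 888 CPM in EV, against 551, 549 and 448 CPM in siCtrl. KRT14, a basal keratin, averaged 2.38 ± 0.467 CPM in EV and 0.754 ± 0.454 CPM in siCtrl. Luminal markers differed in both directions, 7 of 14 higher and 3 lower (4 higher without S15 or without S29, 6 without S35), with ACP3 (prostatic acid phosphatase) and KRT8 lower by 0.63 and 0.31 and EPCAM higher by 0.39. Among replication-dependent histones, whose copies are near-identical and mostly not polyadenylated, 5 of 10 were higher in EV and none lower (2 lower without S35, 3 higher without S1, S15 or S7, and 3 by DESeq2; 1 lower with upper-quartile scaling), H1-2 by 0.53 and H2AC20 by 2.

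The comparisons with vehicle and with R1881 share no library, so their calls could be overlapped. Of 15356 genes tested in both, 5717 were called with vehicle and 3842 with R1881, and 1709 were called in both in the same direction. That is 29.9% of the vehicle calls and 44.5% of the R1881 calls. In either direction, 34.9% of the vehicle calls were also called with R1881, against 24.7% of all genes tested with R1881. Of the R1881 calls, 51.9% were also called with vehicle, against 35.4% of all genes tested with vehicle. Both comparisons hold the same difference of study and transfection. EV was higher in both for 877 genes and lower in both for 832, and 286 genes were called in opposite directions.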

How the data were processed

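The values are gene counts deposited by the authors, with no normalization, for 24 libraries. Per the submitters' processing notes, the tools were bcl2fastq 2.20, STAR 2.7.9a and featureCounts from Subread 1.6.4, on GRCh38.p7. Not given in the sources used here: whether strand was used, how reads that map to several places were treated, and which annotation was counted. Antisense genes and near-identical copies are therefore uncertain.

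Gene positions are from GENCODE 29 on GRCh38, which held 58381 of the 60649 feature IDs. Promoter windows are from RefSeq on GRCh38.p14. Differences were fitted in R 4.3.3 with edgeR 4.0.16 (robust quasi-likelihood F test, TMM factors, filterByExpr, Benjamini-Hochberg over all genes tested, called under 0.05). EV vehicle and siCtrl vehicle were fitted on their 6 libraries, the R1881 pair on its own 6, and the interaction on all 12. Levels are CPM with TMM factors over all 24 libraries, folds come from the fits, and errors of log2 differences are SE.

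On simulated counts for the vehicle comparison (16372 genes tested), 45 of 50 genes changed 1.5-fold, 47 of 50 changed 2-fold and 49 of 50 changed 4-fold were called, with 24 false calls. Of 50 genes lowered to 0.5-fold, 44 were called. The changed genes were few and had mean counts over 50, and no simulated library stood apart as S35 does. These shares therefore do not measure power or false calls in the data. DESeq2 1.42.0, limma 3.58.1 (voom with sample weights), other scalings, no filter, other sets of libraries and each library left out were alternatives.

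Named genes were WDR77, KLK3, KLK2, TMPRSS2 and FKBP5, and the 10 largest called changes in each direction. These changes needed no overlap, a higher group at 1 CPM or more and a gene symbol that is not a clone name. Per list, the 6 members or fewer of smallest adjusted p were named, plus 1 called against its median. The members, the 25 gene lists and these rules were chosen with earlier results of these data known. Some named genes are not reported here. Intervals and floors (3 counts) cover counting error only.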

Additional observations from a re-analysis of the deposited data

Results flagged for a closer look

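The difference between EV and siCtrl with vehicle was not the difference with R1881 for 3014 of 17538 genes (17.2%). This was tested with the interaction term over 12 libraries (edgeR adjusted p under 0.05). It was called for 52 of the 106 genes tested by name. Most of these were picked by their vehicle difference, which is a part of the interaction, so that share is no result about them. The values that follow are that interaction on the log2 scale, the vehicle difference minus the R1881 difference. They come from the fit with S35 included and are not given without it.

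Among genes of androgen response and androgen signalling, KLK3 had 3.31, KLK2 3.20, CHRNA2 2.47, TMPRSS2 1.23, SLC45A3 1.04, FKBP5 1, PMEPA1 1, SORD 0.61, PRMT5 0.54 and WDR77 0.52. Negative values were found for STEAP2 with -0.33, PRUNE2 with -0.36, NCOA3 with -0.52, NCOA2 with -0.27 and NCOR1 with -0.22.

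Among stress genes, STC2 had 0.84, SHMT2 0.75, PDIA4 0.61, HSPD1 0.56, SRF 0.56, HSP90B1 0.54, AEN 0.50 and HSP90AA1 0.27, against -0.48 for TP53INP1, -0.36 for HEXA and -0.27 for GRN. The RNA interference genes AGO4, TNRC6B, AGO3 and AGO1 had -1.10, -0.67, -0.45 and -0.40.

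Among growth and metabolism genes, CENPA had 0.93, HK2 0.93, CDT1 0.91, POLA1 0.83, RFC5 0.75, RFC2 0.71, CDK4 0.71, NPM1 0.65, NOLC1 0.55 and FBL 0.54, while STARD4 had -0.66 and SCD -0.37. Of the remaining genes, KRT14 had 3.12, ADAM7 2.48, CYP11A1 2.25, H2AC20 2.04 and FN1 0.84, and COL1A1 had -0.97, ENTPD8 -3.26, GAB3 -4.58, NBPF7 -5.56 and IL1B -6.37. IL1B, GAB3 and NBPF7 did not pass the filter with R1881, where their levels were at or below 0.126 CPM in EV and 0.0397 CPM in siCtrl, so the size of their values depends on the prior count. IL1B held 0 counts in siCtrl with R1881.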

How the results depend on the processing

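Between EV and siCtrl with vehicle, 5488 (DESeq2) to 6558 (all 24 libraries in the fit) genes were called under the other settings, against 5906, and 4350 to 6203 with 1 library left out. The interaction was called for 2753 to 3547 genes (2282 to 3253 with 1 library left out) and the R1881 difference for 3448 to 4612 (2928 to 4157). The count of genes at least 2-fold higher was 301, and 462 in the fit of all 24 libraries. The list of hormone-responsive genes held 340 genes, 318 to 345 with 1 library left out, and 90 when 4-fold was required, by construction. Of 1694 values of named genes under the alternatives, 1670 kept their direction and side of the threshold, 17 lost their call, 7 gained one and none reversed. Of 800 list counts, 709 stayed within 1.5 times and 91 did not. PPP1R15A lost its call with limma (adjusted p = 0.0845); the cause was not tested.

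Sample numbers fall into 3 runs, which could pair libraries. Libraries of the same run correlated by -0.0252, -0.0584 and -0.0514 in their deviations from the group means, which shows no shared run effect. With 3 libraries a group, and S35 apart from the others of its group, these values cannot exclude one. With the run as a replicate block, 5692 genes were called with vehicle, 3200 for the interaction and 3759 with R1881, and 363 for the hormone-responsive list. KLK3 (adjusted p = 0.0934), KLK2 (0.0653), CENPE (0.0639) and CENPF (0.0571) lost their calls under the block, and no other named gene did.

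Depth limits what can be said of genes near the floor, 0.124 to 0.167 CPM for 3 counts in the 6 libraries. Study and kind of transfection cannot be told apart, no untransfected cells were measured, and 3 libraries a group leave calls open to single libraries such as siCtrl S35.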

Other observations

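Long noncoding genes leaned to the low side in EV. Of 2547 tested, 4.59% were higher and 16% lower, with a median log2 difference of -0.18 (-0.17 without S35), against 22% higher and 17.9% lower of 12730 protein-coding genes, with a median of 0.023. With R1881 the median of the long noncoding genes was -0.052. The long noncoding features annotated as lincRNA took 0.572% to 0.589% of counts in EV and 0.693% to 0.749% in siCtrl with vehicle.

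Protein-coding genes that were higher in EV had a median exonic length of 4624 bases and a median GC content of 46.3%. Those lower in EV had 6277 bases and 51.3%, and those not called 5031 bases and 48.6%. The part of length and base composition in the differences was not tested. Protein-coding genes of chromosome 13 had a median difference of 0.12 with vehicle and 0.11 with R1881, over 206 genes.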
